A study of Aspergillus nidulans with 24 samples.

Results

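The response to the nitrogen source that was measured without areB, on fructose, is described here across all 8728 genes of the deposited table. It is the comparison of 2 groups of the areB deletion strain of Aspergillus nidulans, a filamentous fungus, with 6 of the 24 libraries of the study. In 1 group the mycelium grew on 0.1% fructose with 5 mM urea, and in the other on 0.1% fructose with 10 mM ammonium tartrate, with 3 biological replicates in each. Cultures were kept at 37 °C, and the labels give a growth time of 9 to 11 h for all libraries rather than 1 time for each. Both groups carry the same genotype, in which the A. fumigatus pyrG marker replaces areB (areBΔ::A.f. pyrG) and argB replaces nkuA (nkuAΔ::argB), together with the alleles pyrG89, argB2, pabaB22 and riboB2. The same media were used with the wild type, which is labelled biA1, and both strains were also grown on 1% glucose. The strains thus differ at marker loci as well as at areB, and areB and the strain background cannot be told apart. Tartrate is in the ammonium media alone, so what is due to ammonium and what to tartrate cannot be told apart either.

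Fungi that are given ammonium or glutamine shut down the uptake and breakdown of other nitrogen sources, which is called nitrogen metabolite repression. In A. nidulans the GATA factor AreA activates the genes for these other sources, the corepressor NmrA binds AreA and holds it back when ammonium is plentiful, and AreB is a second GATA factor that is annotated as a negative regulator. Urea does not repress. It enters through the symporter UreA and is split by urease into ammonia and carbon dioxide, after which glutamate dehydrogenase, glutamine synthetase and glutamate synthase build the nitrogen into amino acids. Fructose at this concentration leaves carbon catabolite repression, which acts through CreA, relieved.

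The values are the authors' mean normalized counts of each group. Each such mean is a sum of 3 whole read counts, each divided by its library's size factor and by the number of libraries, so the counts of the single libraries could be worked out from the means for 8707 of the 8728 genes. The libraries recovered in this way are called a, b and c within a group, in descending order of their size factors. These letters are not the replicate numbers of the labels, and nothing links the letters of 1 group to those of another. The 6 deletion libraries held 1923659 to 3272388 reads in the recovered genes. A log2 ratio below is that of the group means with urea over ammonium after a pseudocount of 1 was added. A value per library is a normalized count, and none is divided by gene length, so levels are compared between media and not between genes. In RNA from whole mycelium fewer cells of a type and less RNA per cell cannot be told apart, and since the libraries come from separate cultures only as far as the labels call them biological replicates, p-values measure the spread between these samples.

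The deleted genes were checked first. Both areB and nkuA had 0 reads in all 6 deletion libraries, against 45.7 to 101 normalized counts of areB and 69.6 to 189.7 of nkuA in the 6 wild type libraries on fructose.

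In each deletion group 1 library stood apart from the other 2. On the first principal component, with 81.8% of the variance between the 6 libraries, urea library a scored 77.0 and ammonium library c scored 81.3, against -24.8 to -54.9 for the other 4. The 2 libraries deviated in the same way. Relative to the other libraries of their medium, 1342 of the 7822 genes over the floor, that is with a mean of at least 10 normalized counts in the higher medium, were past 2-fold higher and 1131 past 2-fold lower in both, and 20 moved past 2-fold in opposite directions. The catalase gene cpeA, a marker of sexual development, had 8624 normalized counts in urea library a against 143 and 19.2 in b and c, and 10015 in ammonium library c against 274 and 26.2 in a and b. The acetamidase gene amdS likewise had 2307 with urea in library a and 2536 with ammonium in library c, against 22.9 to 82.7 in the other 4. The 77 genes described as acting in ribosome biogenesis or rRNA processing summed to 5429 in urea library a and 5070 in ammonium library c, against 32774 to 52016 in the other 4. By contrast mutA, another marker of sexual structures, stayed at 1.07 or below in all 6 libraries. Of the conidiophore markers, brlA stayed at 2.24 or below and abaA at 6.41 or below in all 6 libraries. Over the floor were 4 conidiophore and sexual markers. Against the other libraries of its medium, 1 of these 4 was past 2-fold higher in urea library a and 1 in ammonium library c. In the wild type, too, 1 library of each fructose group stood apart. What part this difference between libraries has in the results was not tested. Genes described at length are given in every library or without these 2, and most counts of gene lists without these 2 as well.

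**Figure D1:**
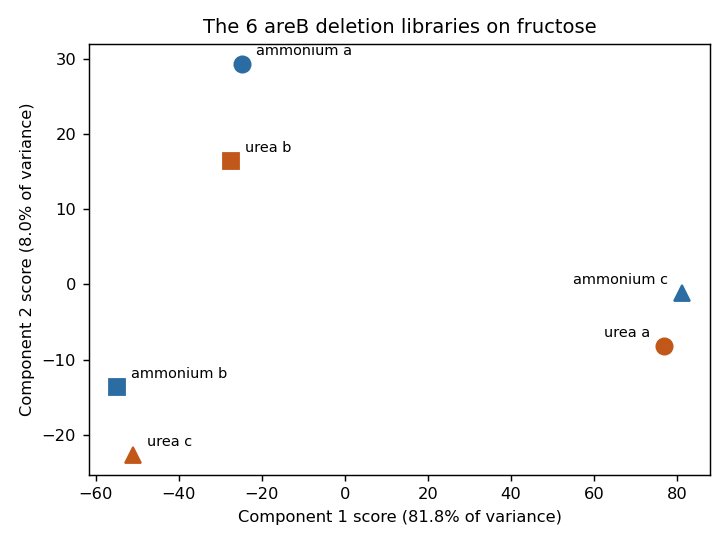
Scores of the 6 areB deletion libraries on fructose on the first 2 principal components of log2 normalized counts, with the share of the variance on each axis, urea in orange and ammonium in blue. Urea library a and ammonium library c lie at 77.0 and 81.3 on the first component and the other 4 libraries between -24.8 and -54.9, so the first component does not separate the media.

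Because the libraries of the 2 media deviated from their group means in the same ways, each urea library was also set against the ammonium library whose deviations were most like its own. Over 6592 genes the correlation of the deviations was 0.93 between urea library a and ammonium library c, 0.67 between urea b and ammonium a, and 0.90 between urea c and ammonium b. These matched pairs were chosen from the data and not from the labels. No test on them is independent of that choice, and their p-values can be too small.

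Of the 7822 genes over the floor, 89 (1.14%) were past 2-fold higher with urea and 95 (1.21%) past 2-fold lower by group means, and the median log2 ratio of all of them was -0.03. Past 2-fold and over 2 standard errors, taken from the authors' strain comparisons on fructose, were 47 of 7738 genes higher (0.607%) and 32 lower (0.414%). Groups that did not overlap, with all 3 urea libraries above or below all 3 ammonium libraries, were found among the past 2-fold genes for 24 of 7809 higher (0.307%) and 27 lower (0.346%). Past 2-fold in all 3 matched pairs were 17 higher (0.218%) and 26 lower (0.333%), and 23 genes met both of these last conditions. The count by means moved with single libraries. It was 883 without urea library a, with 99 higher and 784 lower, and 942 without ammonium library c, with 828 higher and 114 lower, so the balance of directions turned with the library left out. It was 329 without urea b, 360 without urea c, 388 without ammonium b, and 323 without both libraries that stood apart, of which 191 were higher and 132 lower. Where the floor was kept as with all libraries, 208 of 7809 genes were higher and 172 lower without the 2 libraries.

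With limma on the recovered counts, 0 of 7848 genes (0%) passed an adjusted p of 0.05 when the libraries were not matched, and at an unadjusted p under 0.05 there were 30 genes higher and 17 lower. The limma-trend form gave 0 as well, with 27 higher and 14 lower before adjustment. With the matched pairs as blocks 18 genes (0.229%) passed, 7 higher and 11 lower, and 293 were higher and 271 lower before adjustment. Of the 18 genes, 12 were also past 2-fold in all 3 matched pairs. On data simulated at the observed spread of these libraries, unmatched limma recovered 4% of genes changed 2-fold, 22% of those changed 4-fold and 60% of those changed 16-fold. Each gene was drawn independently there, without the deviations that libraries share across genes, so these shares need not hold for the real libraries.

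**Figure D2:**
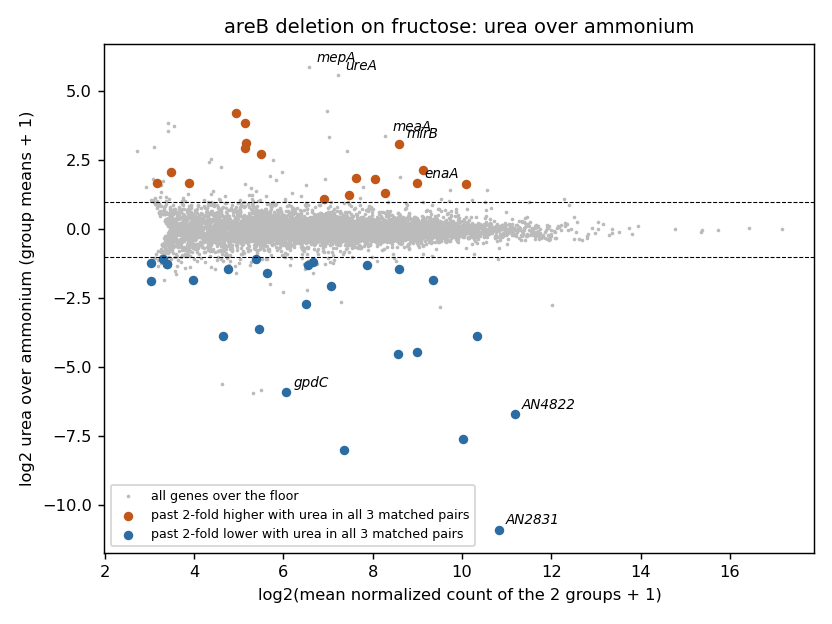
The log2 ratio of group means with urea over ammonium in the areB deletion strain on fructose (vertical axis) against the log2 mean level of the 2 groups (horizontal axis), for the 7822 genes over the floor. Dashed lines mark 2-fold, and filled points mark the 17 genes higher and 26 lower with urea past 2-fold in all 3 matched pairs. AN2831 lies lowest at -10.90 and mepA highest at 5.88.

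The genes that were lowest with urea relative to ammonium tartrate included the 2 annotated for tartrate. The genes described as putative tartrate dehydrogenases, enzymes that oxidize tartrate, were AN4822 and AN4003. AN4822 had 68.8, 25.0 and 34.2 normalized counts in urea libraries a, b and c, against 1234, 623 and 11948 in ammonium libraries a, b and c. All ammonium libraries were far above all urea libraries, and the log2 ratio was -6.72, or -4.92 without the 2 libraries that stood apart. AN4003 had 19.2, 6.68 and 3.21 with urea, against 144, 13.9 and 6051 with ammonium. The groups overlapped because ammonium library b lay below urea library a, while each matched pair was past 2-fold lower with urea.

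AN2831, annotated for transmembrane transport, had the lowest log2 ratio of all 7822 genes. It had 1 read in each of the 3 urea libraries, which is 0.80, 0.83 and 1.07 normalized counts, against 225, 27.8 and 10624 with ammonium. The groups did not overlap. With 3 reads in the whole urea group its log2 ratio of -10.90 depends on the pseudocount, and lay between -11.82 and -9.27 with pseudocounts of 0.1 and 5. With no pseudocount it was -12.0, with an exact 95% Poisson interval of -14.28 to -10.45 that covers the counting error of the 3 reads only. The putative oxidoreductase gene AN5030 had 0.80, 0 and 0 with urea, against 21.7, 1.64 and 948 with ammonium, with no overlap, 1 read in the whole urea group and 2 reads in the lowest ammonium library. Its log2 ratio with no pseudocount was -10.1, with an exact Poisson interval of -15.4 to -7.62. AN3961, of no annotated function in the table, had 20, 45.1 and 24.6 with urea and 404, 122 and 1636 with ammonium, and its log2 ratio of -4.55 became -2.88 without the 2 libraries. AN3961 and AN2831 passed limma with matched pairs, both at an adjusted p of 0.044.

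Ammonium library c held the highest value of AN4822, AN4003, AN2831, AN5030 and AN3961, and urea library a, which stood apart in the same way, stayed at 68.8 or below for all 5. Over all genes whose description names tartrate, malate or dicarboxylates, 5 of the 20 over the floor were past 2-fold lower with urea and 0 higher, with a median log2 ratio of -0.26.

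A neighbouring pair on the RefSeq map was lower with urea. gpdC, a glyceraldehyde-3-phosphate dehydrogenase gene, had 0, 2.50 and 1.07 with urea, against 18.2, 6.54 and 367 with ammonium. Its neighbour AN2584, annotated as a transmembrane transporter, had 4.0, 3.34 and 9.62 with urea, against 42.0, 43.3 and 156 with ammonium. Neither gene had overlapping groups, and the log2 ratios were -5.91 and -3.61, or -2.26 and -2.55 without the 2 libraries. gpdC was the 1 member past 2-fold among 16 genes of glycolysis, with and without the 2 libraries. Over all genes 1.21% were past 2-fold lower by means. AN2584 passed limma with matched pairs at an adjusted p of 0.044.

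Other genes lower with urea also differed widely between libraries of the same medium. The transporter gene jenB, whose product takes up short-chain carboxylic acids, had 60.8, 1.67 and 0 with urea, against 8.41, 0.82 and 303 with ammonium. AN1792, annotated as an esterase-type hydrolase, had 129, 0.83 and 0 with urea, against 65.8, 4.90 and 2861 with ammonium. In both genes the groups overlapped, with urea library a and ammonium library c far above the rest of their own groups. Within matched pairs AN1792 was lower with urea by log2 ratios of -4.46, -5.19 and -2.56 (limma with matched pairs, adjusted p = 0.0039), and jenB by -2.30, -1.82 and -0.86 (adjusted p = 0.044). The concanamycin-responsive gene cipC had 723, 45.1 and 86.5 with urea, against 321, 225 and 2527 with ammonium, and passed at an adjusted p of 0.029 in the same limma fit.

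AN5370, AN7792 and AN7165, named after their values were seen, had groups that did not overlap. AN5370, annotated for transmembrane transport, had 68.0, 45.1 and 39.5 with urea, against 195, 208 and 245 with ammonium, with no overlap and matched log2 ratios of -1.84, -2.09 and -2.37 (limma with matched pairs, adjusted p = 0.0039). The putative lysophospholipase gene AN7792 had 28.8, 16.7 and 23.5 with urea, against 100.2, 289 and 84.0 with ammonium. AN7165 had 281, 89.3 and 250.0 with urea, against 436, 559.9 and 686 with ammonium. Both genes passed limma with matched pairs, at adjusted p values of 0.029 and 0.044. The xylose transporter gene xtrE, with a log2 ratio of -1.29, and the flavohaemoglobin gene fhbA, with -1.12, were past 2-fold lower by means with overlapping groups. xtrE had 354, 34.2 and 16 with urea, against 133, 68.7 and 792 with ammonium. Without the 2 libraries that stood apart the ratios were -1.96 for xtrE and -0.88 for fhbA.

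Among genes with a symbol and a mean over both groups of at least 50, those highest with urea relative to ammonium encode transporters for urea and ammonium. The urea symporter gene ureA had 1.60, 334 and 536 normalized counts in urea libraries a, b and c, against 7.0, 4.90 and 3.36 in ammonium libraries a, b and c. Urea libraries b and c were high and urea library a was below every ammonium library, so the groups overlapped. The log2 ratio was 5.58, or 5.97 without the 2 libraries that stood apart, and in the matched pair of those 2 it was -0.75. The ammonium permease gene mepA had 5.6, 234 and 316 with urea, against 0.70, 2.45 and 3.36 with ammonium. Its groups did not overlap, with urea library a the closest to the ammonium libraries and a log2 ratio of 5.88. The major ammonium transporter gene meaA had 16.8, 666 and 1007 with urea, against 43.4, 80.9 and 35.8 with ammonium, again high in b and c and lowest of all in a. With matched pairs limma gave adjusted p values of 0.10 for ureA, 0.13 for mepA and 0.14 for meaA, so none of the 3 passed.

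The urease gene ureB had 641, 1365 and 1680 with urea, against 328, 419 and 627 with ammonium. The groups did not overlap, although the matched log2 ratio was 0.03 in the pair that stood apart and 2.05 and 2.00 in the others. The gene of the urease accessory protein, ureD, had a log2 ratio of -0.55 with overlapping groups. Of the 3 genes for urea uptake and urease over the floor, 2 were thus past 2-fold higher and 0 lower, with and without the 2 libraries that stood apart. Over all genes 1.14% were higher and 1.21% lower by means, and 208 and 172 of 7809 without these 2 libraries.

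Of the 6 genes over the floor for ammonium uptake and glutamate or glutamine synthesis, 4 were past 2-fold higher by means and 0 lower, with a median log2 ratio of 1.26 against -0.03 over all genes. Past 2-fold over all genes were 1.14% higher and 1.21% lower. Without the 2 libraries 5 were higher and the median was 1.47, beside 208 of 7809 genes higher. The biosynthetic glutamate dehydrogenase gene gdhA had 162, 3053 and 3389 with urea, against 689, 1391 and 365 with ammonium. The glutamate synthase gene gltA had 900.5, 8210.0 and 11332 with urea, against 2462, 5380.0 and 1778 with ammonium. Both genes were high in urea libraries b and c, and urea library a was the lowest of the 6 libraries. The glutamine synthetase gene glnA had a log2 ratio of 0.86 and the ammonium transporter-like gene mepC one of 0.02. mepB, a transporter gene known from nitrogen starvation, stayed at 6.72 normalized counts or below in all 6 libraries.

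**Figure D3:**
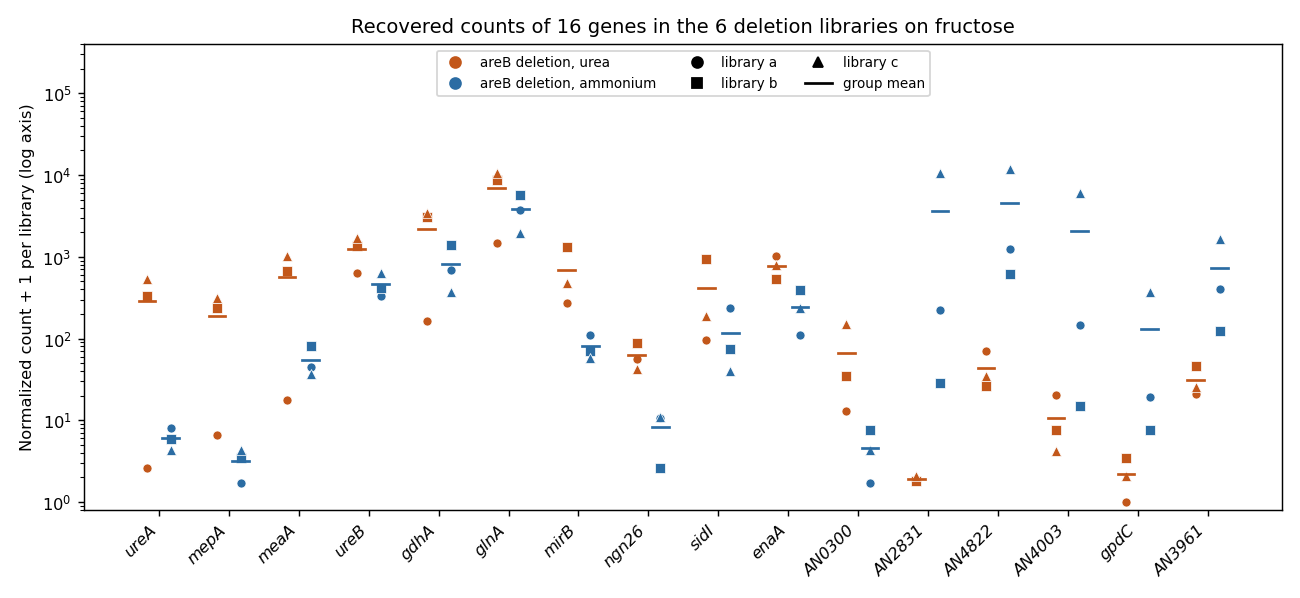
Normalized counts plus 1, on a log axis, of 16 genes in the 3 urea libraries (orange) and 3 ammonium libraries (blue) of the areB deletion strain on fructose, with bars at the group means. Urea library a lies far below urea libraries b and c for ureA, mepA and meaA, while the urea libraries of AN2831 lie at 0.80 to 1.07 normalized counts, below all 3 ammonium libraries.

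Genes for nitrate use were past 2-fold higher by means in 4 of 10 members and lower in 0, beside 1.14% and 1.21% of all genes, with no nitrate in either medium by the labels. None of the 4 had groups that did not overlap or was past 2-fold in all 3 matched pairs. The median log2 ratio of the 10 was 0.29, or 0.57 without the 2 libraries that stood apart. In that setting 4 of the 10 were again past 2-fold higher and 0 lower. The nitrate reductase gene niaD had 1.60, 46.7 and 139 with urea, against 7.71, 0.82 and 11.2 with ammonium. The nitrite reductase gene niiA had 218, 992 and 1783 with urea, against 596, 324 and 482 with ammonium. For both genes urea library a was below at least 2 ammonium libraries and b and c were higher. The transporter genes crnA and nitA had log2 ratios of 3.00 and 3.73 at low levels, with overlapping groups. The pathway's activator gene nirA had a log2 ratio of 0.16.

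Among genes for purine and nucleobase use, 4 of 12 were past 2-fold higher with urea and 0 lower. Over all genes these shares were 1.14% and 1.21%. The 4 genes are all described as transporters or transporter homologs. Without the 2 libraries that stood apart 5 of the 12 were higher, beside 208 of all 7809 genes. The median log2 ratio of the list was then 0.54 in place of 0.06. The cytosine and purine permease gene fcyB had 28.0, 105 and 112 with urea, against 21.0, 15.5 and 25.8 with ammonium, with no overlap. The allantoin permease gene furA had 71.2, 91.0 and 105 with urea, against 22.4, 31.1 and 69.4 with ammonium, also with no overlap. In the matched pair of the 2 libraries that stood apart the log2 ratio was 0.12 for fcyB and 0.04 for furA. The other pairs had 2.27 and 2.78 for fcyB and 1.97 and 1.72 for furA. furG, a homolog of a S. cerevisiae uracil transporter gene, had a log2 ratio of 2.52 and the purine permease gene azgA one of 1.00, both with overlapping groups, and the ratios were 3.88 and 1.03 without the 2 libraries. The putative asparaginase gene AN0300, outside these lists and named after its values were seen, had 12, 34.2 and 148 with urea, against 0.70, 6.54 and 3.36 with ammonium, apart in all libraries and past 2-fold in all 3 matched pairs.

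Of 5 proline genes, 3 arginine genes, 12 genes for amides, lactams and GABA, 5 for phenylalanine and tyrosine and 5 for quinate, 0 were past 2-fold in either direction by means. At the shares over all genes, 1.14% and 1.21%, a list of 30 genes need not hold 1, so the count of 0 says nothing particular about them. Without the 2 libraries that stood apart 2 quinate genes were past 2-fold lower, beside 172 of all 7809 genes. Among 12 nitrogen regulators over the floor 0 were past 2-fold. areA had 90.4, 277 and 232 with urea, against 129, 183 and 113 with ammonium. nmrA had 68.8, 102 and 114 with urea, against 119, 209 and 80.6 with ammonium. The log2 ratios were 0.49 for areA, -0.52 for nmrA, 0.61 for the bZIP regulator gene meaB and 0.27 for creA, all with overlapping groups.

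Several genes of iron uptake were higher with urea. Fungi starved of iron make siderophores, small iron chelators, which in A. nidulans are built by the sid enzymes and taken back up by the Mir transporters. Of 18 genes for iron regulation, siderophores and uptake, 4 were past 2-fold higher by means and 0 lower. Over all genes these shares were 1.14% and 1.21%. In all 3 matched pairs 3 of the 18 were past 2-fold higher, beside 0.218% of all genes. The median log2 ratio of the 18 was 0.72. Without the 2 libraries that stood apart 9 of the 18 were past 2-fold higher and 0 lower, with a median of 0.84. Of all 7809 genes 208 were higher and 172 lower in that setting. Summed over the 18 genes, urea libraries a, b and c had 8008, 18335 and 5581 normalized counts. Ammonium libraries a, b and c had 8092, 3265 and 6012, so the sums of the 2 media overlapped. In the wild type 0 of the 18 were past 2-fold in either direction, with a median of -0.255. The wild type libraries that stood apart were kept in that count, so it cannot be set against the 9 above. For sidI the wild type matched pairs had log2 ratios of -0.75, 1.57 and -2.25, the last from the libraries that stood apart. The siderophore transporter gene mirB had 271, 1314 and 478 with urea, against 111, 69.5 and 57.1 with ammonium. No ammonium library reached a urea library, the log2 ratio was 3.10, or 3.30 without the 2 libraries that stood apart, and the matched ratios were 2.23, 3.56 and 2.76 (limma with matched pairs, adjusted p = 0.044). Its neighbour ngn26, the ortholog of the A. fumigatus siderophore gene sidG, had 55.2, 86.8 and 41.7 with urea, against 9.81, 1.64 and 10.1 with ammonium. These groups were also apart, with an adjusted p of 0.32 in the same limma fit.

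The siderophore biosynthesis gene sidI had 94.4, 946 and 190.2 with urea, against 233, 73.6 and 39.2 with ammonium. Its groups overlapped, and its matched log2 ratios were 1.25, 2.02 and 1.36. The transporter gene mirA had a log2 ratio of 1.08, and the ratios of the synthesis genes sidA, sidC and sidD were 0.99, 0.78 and 0.98, under 2-fold. The iron regulator genes hapX, an activator under iron starvation, and sreA, a repressor of uptake, had ratios of 0.94 and -0.59 with overlapping groups. Outside the list and named after their values were seen, the ABC-type transporter gene AN0404 and its neighbour AN0403, and AN6400, annotated by its orthologs as a ferric-chelate reductase, were past 2-fold higher in all 3 matched pairs. AN0404 had 951, 1270.0 and 506 with urea, against 229, 119 and 271 with ammonium, with no overlap.

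The cation ATPase gene enaA, whose S. cerevisiae counterparts pump out sodium, had 1012, 530.0 and 788 with urea, against 110.0, 387 and 236 with ammonium. All urea libraries were above all ammonium libraries, urea library a included, and the matched log2 ratios were 2.09, 2.26 and 1.03 (limma with matched pairs, adjusted p = 0.054). It was the 1 member past 2-fold among 17 genes of pH signalling and ion transport, with and without the 2 libraries that stood apart. Over all genes 1.14% were past 2-fold higher by means. gfdB, a glycerol-3-phosphate dehydrogenase gene, had 71.2, 79.3 and 50.2 with urea, against 32.9, 14.7 and 38.1 with ammonium, with no overlap.

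The 3 highest log2 ratios among genes without a symbol, with a mean over both groups of at least 50, were 4.28 for AN2469, 3.35 for AN8060 and 2.82 for AN6314, all annotated with oxidoreductase domains. AN2469 had 545, 170.3 and 4.27 with urea, against 4.90, 2.45 and 26.9 with ammonium, high in urea libraries a and b and low in c. All 3 passed limma with matched pairs, at adjusted p values of 0.024, 0.044 and 0.047, and their log2 ratios in the matched pair of urea c and ammonium b were 0.61, 0.01 and 0.62 beside 2.45 to 4.86 in the other pairs.

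Over the 32 gene lists together, 26 of 346 distinct genes over the floor (7.51%) were past 2-fold higher and 5 (1.45%) lower by means, beside 1.14% and 1.21% of all genes. The lists were chosen with results of these data known, and without the 2 libraries that stood apart the counts were 38 higher and 8 lower. The other 20 lists had no member past 2-fold, which at the shares over all genes says little for lists of up to 21 genes. Among secondary metabolite genes 5 of 25 were past 2-fold higher and 2 lower, and 0 of these had groups that did not overlap. Without the 2 libraries 7 were higher and 1 lower. The gene of the F9775 polyketide synthase, orsA, for instance, had 5.6, 335 and 8.55 with urea, against 115, 19.6 and 15.7 with ammonium, with 1 urea library far above the rest. Of the 71 genes that were apart or past 2-fold in all matched pairs, 67 were placed on the RefSeq map. The 5 neighbouring pairs among them each moved in 1 direction. No share over all neighbouring pairs was computed, so this count says nothing about clusters.

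**Figure D4:**
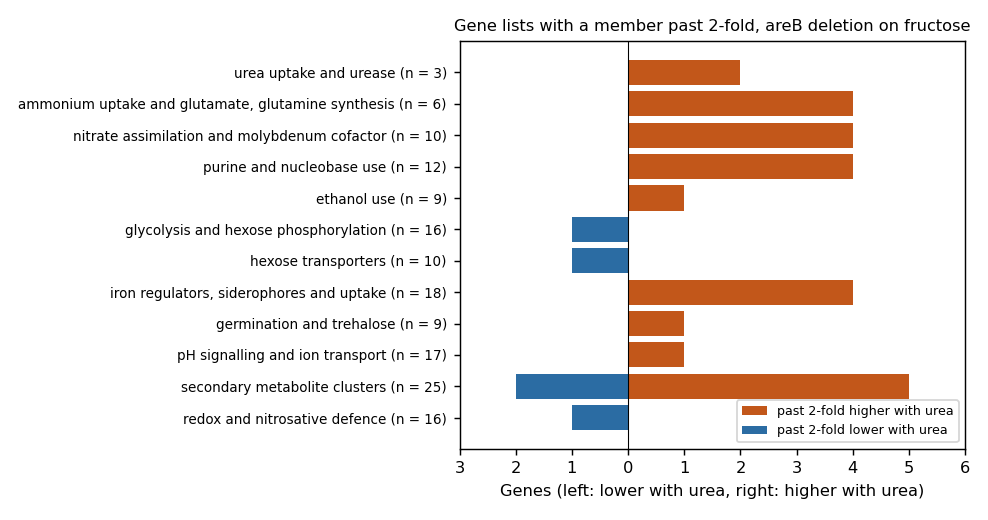
Number of genes past 2-fold higher (right, orange) and lower (left, blue) with urea than with ammonium by group means in the areB deletion strain on fructose, for the 12 gene lists with such a member, with the number of members over the floor in brackets. The lists for urea, ammonium, nitrate, purines and iron have bars to the right only, with 2 to 4 genes each.

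The same comparison was made in the wild type, in which areB is present. By group means, 465 of 8039 genes (5.78%) were past 2-fold higher with urea in the wild type and 258 (3.21%) lower. Of the 465 genes, 54 (11.6%) were also past 2-fold higher in the deletion strain, where the median log2 ratio of the 465 was 0.35, beside 1.41 for the wild type. Of these 54 genes 38 were over the floor in the deletion strain too, which is 42.7% of the 89 genes higher there. Of the 258 genes, 63 (24.4%) were also past 2-fold lower in the deletion strain. Of these 63 genes 50 were over the floor there, which is 52.6% of the 95, and the medians of the 258 were -0.50 in the deletion strain, beside -1.37 in the wild type. Because these genes were chosen by their wild type ratios, the wild type medians lie past 2-fold by selection. The medians therefore do not measure a loss of response in the deletion strain. The wild type libraries that stood apart were kept in all these counts. By sign alone, 347 of the 465 and 204 of the 258 went the same way in the deletion strain, with no share over all genes computed beside them. Across the 7668 genes over the floor in both strains the log2 ratios had a Pearson coefficient of 0.60 and a Spearman coefficient of 0.39, where genes are not independent and the ratios of a strain share its libraries. Without the 2 deletion libraries that stood apart, 105 of the 465 genes (22.6%) were past 2-fold higher in the deletion strain and 61 of the 258 (23.6%) past 2-fold lower. The coefficients across 7655 genes were then 0.43 and 0.33.

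In both strains genes such as AN2831 were lowest with urea. AN2831 had 0 reads in all 3 wild type urea libraries, against 613, 21.6 and 26237 in the ammonium ones. Of the genes past 2-fold lower with urea in all 3 matched pairs, 12 were shared, out of 26 for the deletion strain and 39 for the wild type. Of those higher, 2 were shared, out of 17 for the deletion strain and 76 for the wild type. For ureA the wild type had 0.86, 219.5 and 0 with urea, against 1.70, 3.81 and 13.9 with ammonium, high in 1 library alone. For mirB it had 973, 752 and 162 with urea, against 811, 186 and 374 with ammonium, with overlapping groups and a log2 ratio of 0.46, beside 3.10 in the deletion strain. For enaA it had 911, 214 and 667 with urea, against 22.9, 14.0 and 75.7 with ammonium, a log2 ratio of 3.96 beside 1.66 in the deletion strain.

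Some nitrogen genes were past 2-fold by means in the wild type and not in the deletion strain, with their highest level in 1 wild type library. The proline dehydrogenase gene prnD had 22.4, 15.9 and 9.62 with urea, against 13.3, 8.17 and 62.7 with ammonium in the deletion strain. In the wild type it had 32.8, 5.13 and 2471 with urea, against 35.6, 3.81 and 137 with ammonium. The arginase gene agaA had a log2 ratio of 0.38 in the deletion strain, beside 1.51 in the wild type, and the ornithine transaminase gene otaA had one of 0.09 in the deletion strain, beside 1.29 in the wild type. In the wild type the highest of the 3 urea libraries of agaA and of otaA was again library c, which stood apart.

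The difference of the response between the strains was tested from the authors' deposited fold changes of deletion over wild type, as the difference of the log2 fold change with urea and that with ammonium. By this 2-sided Wald test, 0 of 8612 genes (0%) passed an adjusted p of 0.05, and 54 were under 0.05 before adjustment. The test combined the standard errors of the 2 comparisons as if they were independent, although libraries of the 2 media deviated alike. Its standard errors can therefore be too large, and how far this sets the count of 0 was not tested. The interaction in limma also gave 0 of 7848 (0%), with 1 gene higher and 4 lower before adjustment, and 0 of 7848 with matched pairs (0%), where 124 were higher and 236 lower before adjustment. The smallest adjusted p of the Wald test was 0.53, for the heat shock protein gene AN5781, which had 828, 1047 and 1344 with urea, against 848, 1168 and 19527 with ammonium in the deletion strain. Ammonium library c alone stood out, and the log2 ratio of -2.74 was 0.25 without the 2 libraries that stood apart. The deviates of the Wald test had a robust SD of 0.57, below the 1 of a standard normal. Divided by it, they called 42 genes (0.488%), 16 higher and 26 lower in the deletion strain. Among these were ureB, with a strain difference of 1.03 on the log2 scale of the authors' deposited table, enaA with -1.94 and prnD with -3.01, with adjusted p values of 0.025, 0.015 and 0.0025 in this scaled Wald test. The smallest adjusted p of the scaled test, 1.4e-08, was again that of AN5781. Dividing by an SD below 1 enlarges every deviate and can only add calls, so the 42 are no separate support for a strain difference. For ureB, enaA and prnD the interaction in limma had an adjusted p of 0.9999. With matched pairs it had 0.996, 0.83 and 0.94. Whether a gene was called thus depended on the scaling of the Wald test.

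**Figure D5:**
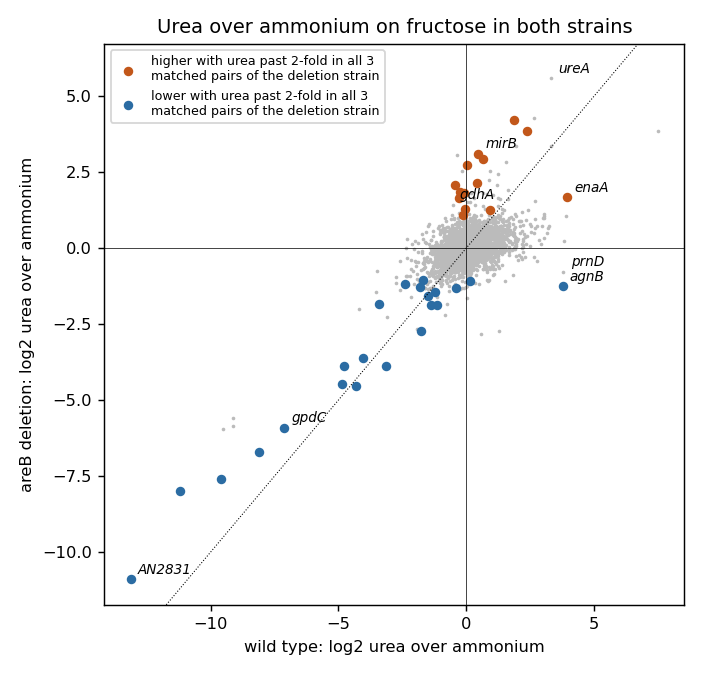
The log2 ratio of group means with urea over ammonium on fructose in the areB deletion strain (vertical axis) against that in the wild type (horizontal axis) for 7668 genes over the floor in both, with a dotted line of equal ratios. Genes such as AN2831 and gpdC lie low in both strains, and mirB lies at 3.10 in the deletion strain, beside 0.46 in the wild type.

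On glucose the deletion strain gave 103 of 7489 genes (1.38%) past 2-fold higher with urea and 127 (1.7%) lower by means, and unmatched limma called 25 of 7343 (0.34%). Of the 89 genes higher on fructose 36 were also past 2-fold higher on glucose, whatever their level there, and of the 95 lower 40 were also past 2-fold lower. The log2 ratios on glucose were 5.13 for ureA, 5.57 for mepA, 2.07 for mirB and -5.24 for AN4822, all of the same sign as on fructose.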

How the data were processed

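RNA depleted of ribosomal RNA was sequenced as paired reads, per the labels' protocols. The submitters' processing notes name DESeq2 1.16.1, HTSeq 0.9.1, GATK, Trimmomatic and FastQC. Aligner, build and annotation were not given in the sources used here. The authors deposited, per group, a signal that is the mean of normalized counts, and, per medium, a fold change (a moderated ratio of deletion over wild type) and an adjusted p-value. From each deposited mean up to 10000 the whole counts of its 3 libraries were searched, and every mean searched had 1 solution. Size factors computed anew from these counts by median of ratios were 0.999 to 1.00 times the recovered ones. On simulated means, all 3000 genes were decoded as drawn. Values per library are therefore decoded from the means, and genes above 10000 in a group are given by means alone.

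The planned comparison of means, with a floor of 10 in the higher group and a pseudocount of 1, has no test. limma 3.58.1 in R 4.3.3 was added after the data were seen, as voom with the recovered size factors, a mean of at least 10 over the 12 fructose libraries, all 4 fructose groups in 1 fit and Benjamini-Hochberg adjustment. For the strain difference, standard errors were recovered from the deposited adjusted p-values by inverting the step-up adjustment, or else taken from other media. In simulated data for that test the 2 comparisons were drawn independently, so the check does not cover libraries that deviate alike. The members and gene lists were chosen with earlier results of these data known. Gene symbols come from the table and, for list members, RefSeq ASM1142v1, to which 8258 identifiers were matched, while 150 list symbols were unmatched. Named genes are the strain markers, the 15 largest rises and falls with a symbol and the 3 without, past 2-fold with a mean of at least 50, up to 10 genes with the smallest adjusted p of the strain difference, the genes opposite in the strains, list members past 2-fold with at least 20, the main nitrogen regulators, and, chosen after their values were seen, the genes past 2-fold in all 3 matched pairs and the markers of the libraries that stood apart. Strand use in counting is not given, so overlapping genes cannot be told apart.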

Additional observations from a re-analysis of the deposited data

Results flagged for a closer look

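Among 114 genes whose matched pairs all pointed one way in the deletion strain and all the other way in the wild type, whatever the size, 1 was also past 2-fold by means in both strains. With 3 pairs in a strain, such opposite signs can also arise in genes that do not differ between the strains. No share over all genes was computed, so the 114 are not a result about the strains. The alpha-1,3-glucanase gene agnB had a log2 ratio of urea over ammonium of -1.25 in the areB deletion strain, and of 3.77 in the wild type. The deletion libraries had 4.8, 6.68 and 4.27 normalized counts with urea, against 16.1, 13.1 and 12.3 with ammonium, with no overlap. The wild type libraries had 4.31, 3.85 and 591 with urea, against 3.40, 3.81 and 33.9 with ammonium, so that 1 library of each wild type group set the ratio, and the wild type pairs had log2 ratios of 0.27, 0.01 and 4.09. The interaction in limma gave an adjusted p of 0.9999, and the ratio in the deletion strain was -0.88 with a pseudocount of 5.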

How the results depend on the processing

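The count of 184 genes past 2-fold by means was 279 with no floor, 102 with a floor of 50, and 123 to 212 with pseudocounts of 5 and 0.1, and leaving out 1 library gave 268 to 942. Alternatives added after the data were seen gave 323 without the 2 libraries that stood apart, 51 with groups that did not overlap, 43 in all 3 matched pairs and 79 past 2 standard errors. The count of 0 in limma was 0 in every fit tried, leaving out each library included, except with matched pairs, which gave 18. The strain difference called 0 genes in every alternative except where the deviates were divided by their robust SD, which called 42. The share of wild type responders past 2-fold the same way in the deletion strain was 16.2%, against 9.95% with a pseudocount of 5 and 23.0% without the 2 libraries that stood apart. For 50 named genes, 200 ratios were recomputed with other pseudocounts, equal group sums or a median of 0, and 0 reversed. A pseudocount cannot turn the sign of a ratio of means, and none of these settings leaves out a library. The 0 therefore says nothing about how far single libraries set the ratios. Without the 2 libraries that stood apart, 4 of the 184 genes turned sign. The cause of these shifts was not tested. By replicate number, no paired analysis was possible because the deposited columns are group means and the recovered libraries carry no number. The pairs matched by profile come from the data. Depth limits genes of a few reads, such as AN2831 and AN5030 with urea.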
